A study of Homo sapiens with 12 samples.

Results

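Transcript levels of 8 cadherin genes, CDH1, CDH2, CDH3, CDH4, CDH6, CDH11, CDH13 and CDH16, were followed in a human podocyte line with and without an inducible, active form of the transcriptional co-activator YAP. The genes were chosen by name, and their rows were found by the Ensembl identifier that carries each symbol, which gave 8 of the 62656 genes in the count table. Podocytes are the cells that wrap the capillaries of the kidney's filter. The cells came from 1 conditionally immortalized line whose temperature-sensitive SV40 large-T antigen lets it divide at 33 °C, and all groups were kept at 37 °C for 12 days before treatment. A stable Tet-On construct carried eGFP (pCW-eGFP, the GFP line) or a FLAG-tagged, nuclear-targeted YAP5SA (the YAP5SA line), and each line was left untreated or given doxycycline at 0.1 µg/ml for 24 hours. This gave 4 groups of 3 libraries: untreated GFP cells, GFP cells with doxycycline, untreated YAP5SA cells (uninduced) and YAP5SA cells with doxycycline (induced). Whether each stable line was a clone or a pool is not given in the sources used here, so the construct and the history of each line cannot be told apart. The labels number the libraries 1 to 3 in each group without saying that they were cultured separately. The p-values therefore measure the spread among these samples only, and that spread may be technical.

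Cadherins are transmembrane proteins that bind a cadherin on the neighbouring cell in the presence of calcium. In the classical members, the tail inside the cell binds p120 catenin and beta-catenin, and alpha-catenin connects that complex to actin to form the adherens junction. Type I members (E-, N-, P- and R-cadherin, encoded by CDH1, CDH2, CDH3 and CDH4) and type II members (K-cadherin, encoded by CDH6, and OB-cadherin, encoded by CDH11) differ in how their outermost domain engages its partner. The label "classical" does not cover the whole set: CDH13 (T-cadherin) has a lipid anchor in place of a tail, and CDH16 (Ksp-cadherin) is a kidney-specific cadherin with a short tail. In the kidney, CDH6 is known from the developing nephron, parietal and proximal tubule epithelium, and CDH16 from tubule epithelium.

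Library totals ranged from 24477592 to 25993413 counts. YAP1, whose row can count the transgene together with the endogenous gene, rose on induction by a log2 fold change of 2.22 ± 0.38 (SE; edgeR quasi-likelihood test with Benjamini-Hochberg adjustment, adjusted p = 0.00373). Its level in the induced replicates 1, 2 and 3 was 1755, 1670.1 and 969 CPM, and none of the other 9 libraries held more than 375 CPM. CPM is the count of a gene divided by the TMM-adjusted size of its library, on the usual scale. Over the 12 libraries, podocyte-defining NPHS1 had 18 reads and WT1 71, whereas PAX8 had 152719 and PAX2 18369. Of the marker lists, 3 of 14 tested podocyte genes rose and 3 fell on induction, as did 2 and 2 of 12 parietal epithelial genes, 0 and 0 of 4 tubule genes, 3 and 1 of 7 genes of mesangial cells, fibroblasts and smooth muscle, 2 and 0 of 3 endothelial genes and 0 and 1 of 3 leukocyte genes. Of all genes tested, 9.83% rose and 9.28% fell on induction. The endothelial markers PECAM1 and CLDN5 had 2 reads each over the 12 libraries, and the leukocyte marker TYROBP had 0.

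Of the 8 cadherin genes, CDH6 was the 1 that passed the test when YAP5SA was induced. Its level fell to 84.8 ± 9.20 CPM in the induced cells from 223 ± 36.3 CPM in the uninduced ones (SD, n = 3). Doxycycline left it near its starting level in the GFP line, at 322 ± 48.6 CPM without the drug and 310.0 ± 57.0 CPM with it. The abundant CDH2 and CDH4 and the scarce CDH1, CDH3, CDH11 and CDH16 did not pass the test on induction, and neither did CDH13. CDH13, CDH16 and CDH11 differed between the lines when both had doxycycline.

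**Figure D1:**
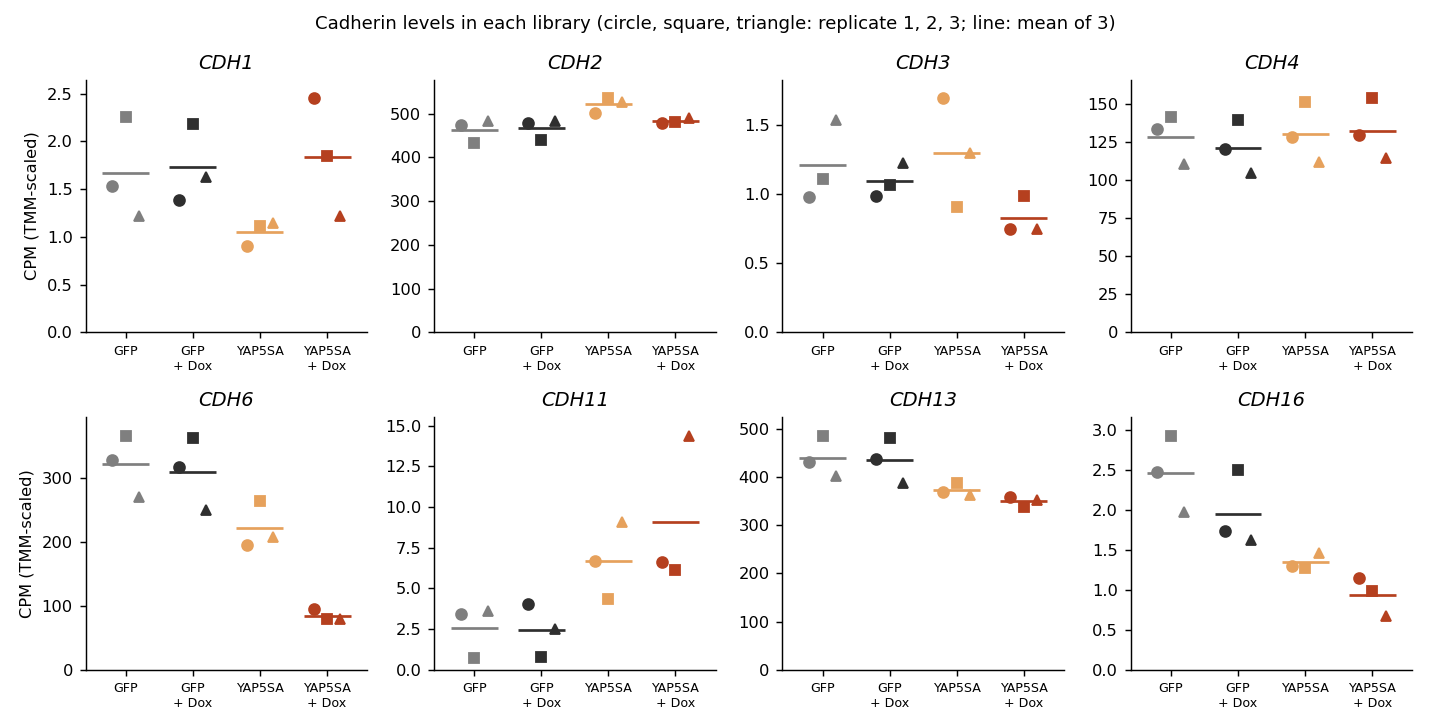
Level of each cadherin gene in TMM-scaled CPM (linear y axis from 0, scale set per gene) in the 3 libraries of each group; symbols mark the replicate number and lines the mean of 3. The 3 induced libraries of CDH6 lie between 79.3 and 95.4 CPM, below the other 9, which lie between 196 and 366 CPM.

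CDH6 (ENSG00000113361, chromosome 5, 31193750 to 31329146, plus strand, GRCh38) encodes K-cadherin. In the GFP line it stood at 329, 366 and 269.8 CPM in replicates 1, 2 and 3 without doxycycline and at 317, 363 and 249.9 CPM with it. In the YAP5SA line it stood at 196, 264 and 208 CPM uninduced and at 95.4, 79.3 and 79.6 CPM induced. Every induced library was thus lower than every uninduced one, while the GFP groups overlapped. Within same-numbered GFP libraries, CDH6 was lower with doxycycline in 3 of 3 pairs, as were CDH4 and CDH16, and CDH2 was higher in 3 of 3; of all genes tested, 12.4% were lower and 13.7% higher in every pair. The counts behind these levels ran from 2012 to 9251 reads per library.

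The log2 fold change of CDH6 on induction was -1.39 ± 0.17 (SE, n = 3 per group, edgeR adjusted p = 0.000436), a 2.63-fold lower level. CDH6 was the 1 member of 8 called at an adjusted p below 0.05, beside 19.1% of all 17470 genes tested (9.28% lower, 9.83% higher), so the set as a whole does not stand above the background. The members' median log2 fold change was -0.10, beside -0.0031 over all genes tested. Among the 1621 genes called lower, 59 had a larger fall than CDH6. Among those with a mean of at least 2 CPM, 22 of 1481 did. With any 1 of the 12 libraries left out, the CDH6 value lay between -1.49 and -1.25 and passed. In bulk RNA, fewer cells with the transcript and less of it per cell cannot be told apart.

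In the GFP line, the log2 fold change of CDH6 with doxycycline was -0.05 ± 0.16 (SE), and the estimate plus and minus 2 SE ran from -0.38 to 0.28. None of the 8 members passed there, and 0% of all genes tested did. The filtered edgeR fit with no block had 282 genes at an unadjusted p below 0.05, none of the members among them. Limma-voom called 0 genes and DESeq2 called 1. With no filter on low counts edgeR called 3, and with the replicate block over all 12 libraries it called 1, none of them a member. Fitted with the replicate number as a block in the 6 GFP libraries, where same-numbered libraries deviated together, edgeR called 20 genes, none of them a member, and CDH6 had -0.06 ± 0.02 (SE, edgeR adjusted p = 0.781). The difference between the doxycycline effects of the lines, the interaction, was -1.34 ± 0.24 for CDH6 (SE, edgeR adjusted p = 0.00962). This was the 1 member called for the interaction, beside 6.88% of all genes tested (3.28% lower, 3.6% higher). The interaction stayed between -1.47 and -1.20 with each library left out in turn, with adjusted p up to 0.0302.

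Before induction the YAP5SA line already held less CDH6 in each of its libraries than the lowest GFP library, by -0.53 ± 0.17 on the log2 scale (SE), but this did not pass the test over all genes (edgeR adjusted p = 0.0812). Among other settings, DESeq2 called it (-0.54, adjusted p = 0.00398). With doxycycline in both lines the difference was -1.87 ± 0.17 (SE, edgeR adjusted p = 2.16e-05), a 3.66-fold lower level in the YAP5SA line. The comparisons of the lines share the YAP5SA libraries with the induction comparison and are not independent of it. Parietal epithelial markers, a list of cells in which CDH6 is known, summed to 4616 to 4751 CPM in the GFP libraries, 4636 to 4740.4 with doxycycline, 4879 to 5133 in uninduced YAP5SA and 4700.5 to 4957 in induced YAP5SA. The summed parietal level of the induced libraries overlapped that of both GFP groups and of the uninduced libraries. That sum pools genes that moved in opposite directions. Of the 12 genes, 2 were called higher and 1 lower in the YAP5SA line without doxycycline, and 4 and 5 with it. Of all genes tested, 6.04% were higher and 2.61% lower without doxycycline, and 19.9% and 18.4% with it. Within the list, KRT19 fell by 0.55 and CD44 by 0.38 on the log2 scale on induction, and KRT18 rose by 0.52 and ANXA3 by 0.28 (edgeR). The part of these genes' cell types in the CDH6 change was not tested.

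**Figure D2:**
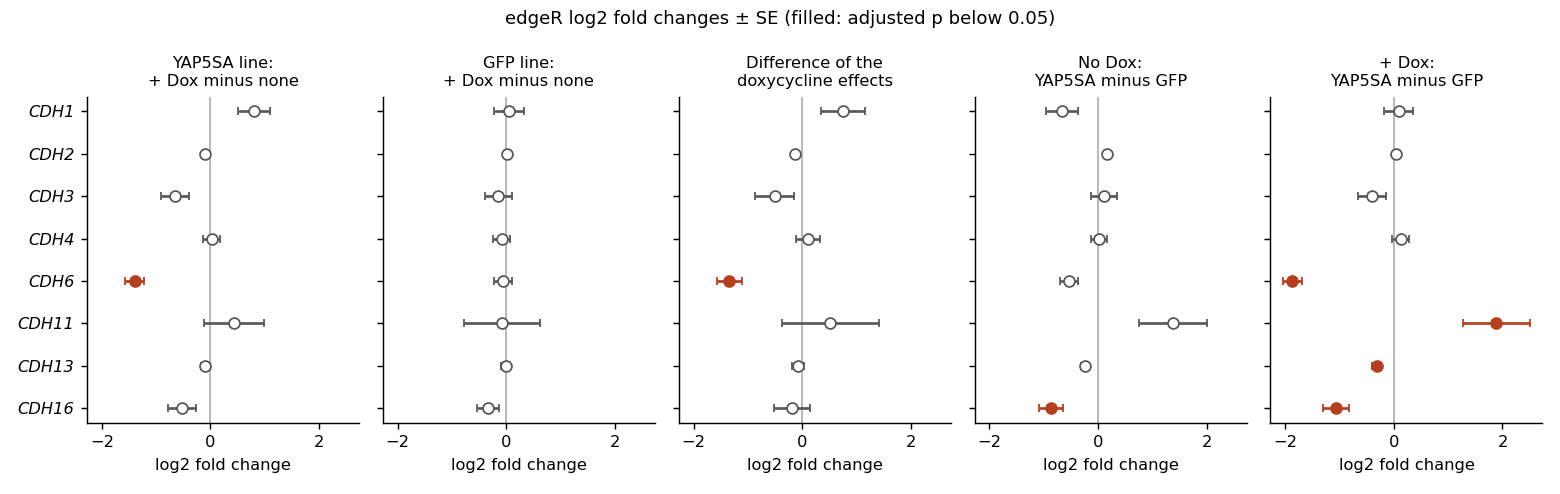
Log2 fold changes from edgeR for the 8 cadherin genes in the 5 comparisons, with bars of 1 SE; filled points had an adjusted p below 0.05. CDH6 is filled on induction (-1.39), for the interaction (-1.34) and between the lines with doxycycline (-1.87), and no gene is filled in the GFP line.

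CDH2, CDH4, CDH1 and CDH3 are the type I members. CDH2 (ENSG00000170558, chromosome 18, 27950966 to 28177446, minus strand) encodes N-cadherin, found in mesenchymal, neural and many kidney epithelial cells. It held 474, 432 and 484 CPM in GFP and 479.6, 439 and 484 CPM in GFP with doxycycline. It held 500.3, 535 and 528 CPM in uninduced and 479, 479.7 and 490.5 CPM in induced YAP5SA. The uninduced YAP5SA libraries were thus the highest, and they overlapped no other group. The induced libraries were lower than the uninduced ones by -0.11 ± 0.05 on the log2 scale (SE, edgeR adjusted p = 0.154), and the uninduced ones higher than GFP by 0.17 ± 0.05 (adjusted p = 0.0546). Neither passed in the fit with no block on the replicate number. Among other settings, the second passed with no filter on low counts (0.16, adjusted p = 0.0261), with DESeq2 (0.17, adjusted p = 0.0358) and without GFP replicate 3 (0.20, adjusted p = 0.0415) or GFP with doxycycline replicate 2 (0.17, adjusted p = 0.0393). Each interval of plus and minus 2 SE, -0.21 to -0.01 and 0.07 to 0.27, holds changes far smaller than that of CDH6.

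CDH4 (ENSG00000179242, chromosome 20, 61252426 to 61940617, plus strand) encodes R-cadherin, first known from the retina and present in the developing kidney. It held 134, 141 and 111 CPM in GFP and 120.4, 139 and 104 CPM in GFP with doxycycline. It held 129, 151 and 112 CPM in uninduced and 129, 154 and 114 CPM in induced YAP5SA. All 4 groups overlapped, and in each of the 4 the replicate numbered 2 was the highest and that numbered 3 the lowest. The log2 fold change on induction was 0.02 ± 0.15 (SE, edgeR adjusted p = 0.945), with an interval of plus and minus 2 SE from -0.28 to 0.33.

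CDH1 (ENSG00000039068, chromosome 16, 68737225 to 68835548, plus strand) encodes E-cadherin, the main cadherin of most epithelia, and was near the floor of the table with 478 reads over the 12 libraries. It held 1.54, 2.26 and 1.22 CPM in GFP, 1.38, 2.18 and 1.62 CPM in GFP with doxycycline, 0.907, 1.11 and 1.15 CPM in uninduced and 2.45, 1.85 and 1.22 CPM in induced YAP5SA. The uninduced libraries were thus lower than all others, and the induced ones overlapped both GFP groups. The log2 fold change on induction was 0.80 ± 0.29 (SE, edgeR adjusted p = 0.0756). Among other settings, it passed without the induced replicate 3 (1.03, adjusted p = 0.0228) and with no filter on low counts (0.80, adjusted p = 0.0401). An antisense gene that shares exonic bases with CDH1 had 63 reads, 13.2% of those of CDH1, and the strand setting of the counting is not given in the sources used here, so reads of the pair cannot be told apart. For the other members such a gene had at most 0.593% of the member's reads.

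CDH3 (ENSG00000062038, chromosome 16, 68636189 to 68722616, plus strand), whose model ends 14608 bases before CDH1 begins, encodes P-cadherin, known from placenta and basal epithelium. It had 337 reads in all. It held 0.985, 1.11 and 1.54 CPM in GFP, 0.988, 1.07 and 1.23 CPM in GFP with doxycycline, 1.70, 0.912 and 1.30 CPM in uninduced and 0.751, 0.985 and 0.749 CPM in induced YAP5SA. The uninduced and induced groups overlapped through the uninduced replicate 2. The log2 fold change on induction was -0.65 ± 0.26 (SE, edgeR adjusted p = 0.0955), and it passed without that replicate (-0.85, adjusted p = 0.0339).

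CDH11 (ENSG00000140937, chromosome 16, 64943753 to 65126112, minus strand), the other type II member, encodes OB-cadherin, known from mesenchymal cells and osteoblasts. It held 3.43, 0.713 and 3.59 CPM in GFP and 4.03, 0.794 and 2.49 CPM in GFP with doxycycline. It held 6.67, 4.32 and 9.08 CPM in uninduced and 6.64, 6.15 and 14.4 CPM in induced YAP5SA. Every YAP5SA library was higher than every GFP library, and the replicate numbered 2 was the lowest in all 4 groups. The spread within the GFP groups was wide, with a highest library 5.04 times the lowest without doxycycline and 5.08 times with it.

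The log2 difference of CDH11 between the lines was 1.37 ± 0.63 without doxycycline (SE, edgeR adjusted p = 0.223) and 1.89 ± 0.62 with it (adjusted p = 0.0369). The second was called higher, and lost the call without GFP with doxycycline replicate 2 (1.47) or 3 (1.91), without uninduced replicate 1 (1.88) and without induced replicate 3 (1.39), with adjusted p from 0.0542 to 0.126. It was also lost with no filter on low counts (adjusted p = 0.106) and in a fit of those groups alone (0.0629). On induction the value was 0.44 ± 0.55 (adjusted p = 0.646). The mesangial, fibroblast and smooth muscle markers summed to 1661 to 1862 CPM in GFP, 1679.8 to 1918 CPM in GFP with doxycycline, 1946 to 2009.5 CPM in uninduced and 1909.6 to 1958 CPM in induced YAP5SA. PDGFRB, the pericyte growth factor receptor in that list, was higher in the YAP5SA line by 1.12 ± 0.15 without and 1.90 ± 0.14 with doxycycline (SE, edgeR adjusted p = 0.000645 and 6.17e-07). LUM (0.34 and 0.75) and GATA3 (0.40 and 0.69) were also called higher. Without doxycycline their calls held in 6 and 11 of 12 fits with a library left out. Of the 7 tested genes, 3 were thus higher and 0 lower in both comparisons of the lines. Of all genes tested, 6.04% were higher and 2.61% lower without doxycycline, and 19.9% and 18.4% with it. In the same list ITGA8, a defining mesangial gene, had 0 reads and PDGFRA 15. The part of such cells in the CDH11 difference was not tested.

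CDH13 (ENSG00000140945, chromosome 16, 82626803 to 83800640, plus strand), the lipid-anchored T-cadherin that binds adiponectin, was among the abundant members. It held 431, 485 and 402 CPM in GFP and 437, 481 and 388 CPM in GFP with doxycycline. It held 368, 388 and 362 CPM in uninduced and 358, 337 and 352 CPM in induced YAP5SA. The YAP5SA libraries were thus the lower ones at each treatment, and the induced libraries lay just under the uninduced ones. With doxycycline the difference between the lines was -0.32 ± 0.08 on the log2 scale (SE, edgeR adjusted p = 0.00571), which was called, and it held with each library left out (-0.40 to -0.24). Without doxycycline it was -0.24 ± 0.08 (adjusted p = 0.0764) and on induction -0.09 ± 0.08 (adjusted p = 0.451), neither of which passed. Among other settings, the value without doxycycline was called by DESeq2 (adjusted p = 0.0325), without GFP replicate 3 (-0.30, adjusted p = 0.0379) and without GFP with doxycycline replicate 2 or 3 (-0.24, adjusted p = 0.0444 and 0.0382).

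CDH16 (ENSG00000166589, chromosome 16, 66908122 to 66918984, minus strand) was scarce, with 508 reads over the 12 libraries. It held 2.48, 2.93 and 1.97 CPM in GFP and 1.74, 2.5 and 1.62 CPM in GFP with doxycycline. It held 1.30, 1.27 and 1.46 CPM in uninduced and 1.15, 0.985 and 0.670 CPM in induced YAP5SA. The 3 induced libraries were the lowest of the 12, and no YAP5SA library reached a GFP library. The difference between the lines was -0.87 ± 0.22 without doxycycline (SE, edgeR adjusted p = 0.0264) and -1.06 ± 0.24 with it (adjusted p = 0.00357), and both were called. The first lost its call without GFP replicate 1 (-0.86) or 2 (-0.73) and without uninduced replicate 1 (-0.85) or 2 (-0.83), and the second held with each library left out (-1.23 to -0.84). On induction the value was -0.52 ± 0.25 (adjusted p = 0.177).

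Of 12 tubule markers 4 had enough reads to be tested. Between the lines 1 was lower in YAP5SA without doxycycline and 2 with it, beside 2.61% and 18.4% of all genes tested. In both, 0 were higher, and the medians were 0.01 and -0.57. On induction 0 of 4 were called. The summed level of the 12 was 24.5 to 28.2 CPM in GFP, 24.5 to 26.0 CPM in GFP with doxycycline, 16.1 to 20.7 CPM in uninduced and 12.7 to 18.2 CPM in induced YAP5SA. The sum was carried by EPCAM, an epithelial adhesion molecule, which was lower in the YAP5SA line by -0.58 ± 0.14 without doxycycline and -0.69 ± 0.14 with it (SE, edgeR adjusted p = 0.024 and 0.00233); the first of these calls was lost without GFP replicate 2 and without uninduced replicate 1 or 2 (between -0.65 and -0.46 over all libraries left out). The proximal tubule water channel AQP1 averaged 0.868 ± 0.296 CPM in GFP and 1.16 ± 0.164 CPM in uninduced YAP5SA (SD, n = 3), and the libraries overlapped. The proximal tubule glucose transporter SLC5A2 averaged 0.895 and 1.12 CPM. CUBN, the remaining tested marker, went the other way, from 1.42 to 1.16 CPM, and none of these was called. With doxycycline, AQP1 averaged 0.937 CPM in GFP and 0.684 CPM in induced YAP5SA, and SLC5A2 did not differ beyond its spread. CUBN was called lower there (log2 difference -0.75, edgeR), and the call held in 7 of 12 fits with a library left out. AQP1, SLC5A2 and CUBN had 277, 318 and 421 reads over the 12 libraries. The segment-defining UMOD, AQP2 and CALB1 had 0 reads and SLC12A1 had 1. The part of tubule-like cells in the CDH16 difference was not tested.

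Counted together, 1 of 8 members was called between the lines without doxycycline (CDH16, lower), beside 8.65% of all genes tested (2.61% lower, 6.04% higher). With doxycycline 4 of 8 were called, beside 38.3% (18.4% lower, 19.9% higher): CDH6, CDH13 and CDH16 were lower and CDH11 higher. Both shares are near the background for a set of 8. The members' median log2 difference was -0.11 without and -0.14 with doxycycline, beside -0.0023 and -0.0054 over all genes tested. By libraries alone, 4 members on induction had every induced library under every uninduced one (CDH2, CDH6, CDH13 and CDH16), beside 16.8% of all genes, and 1 had the reverse (CDH1), beside 17.8%. Without doxycycline 4 members were lower in every YAP5SA library (CDH1, CDH6, CDH13 and CDH16), beside 13.1%, and 2 were higher (CDH2 and CDH11), beside 16.4%. With doxycycline 4 were lower (CDH3, CDH6, CDH13 and CDH16), beside 24.3%, and 1 was higher (CDH11), beside 24.6%. In the GFP line all 8 overlapped, where 2.87% of all genes were lower and 3.35% higher in every library with doxycycline.

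Levels were compared between genes per kilobase of exon. In GFP without doxycycline CDH2 was the highest at 93.6 ± 5.59 CPM per kilobase (SD, n = 3), followed by CDH13 at 39.3 ± 3.77, CDH6 at 26.0 ± 3.93 and CDH4 at 17.5 ± 2.19. CDH16 followed at 0.673 ± 0.131, CDH1 at 0.271 ± 0.086, CDH3 at 0.194 ± 0.047 and CDH11 at 0.193 ± 0.121. The 4 leading genes differed by more than their spread, whereas CDH1, CDH3 and CDH11 did not. In uninduced YAP5SA, CDH6 at 18.0 ± 2.93 and CDH4 at 17.7 ± 2.70 CPM per kilobase did not differ beyond their spread. In induced YAP5SA, CDH4 at 18.0 ± 2.70 stood above CDH6 at 6.85 ± 0.743. On the length of the longest transcript, CDH6 and CDH4 stood at 26.3 and 20.03 CPM per kilobase in uninduced and at 10.00 and 20.3 in induced YAP5SA. CDH6 thus stood below CDH4 in induced YAP5SA with either length. In the uninduced cells it stood above CDH4 in each library on the longest transcript, but below it in replicate 1 on exon length.

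**Figure D3:**
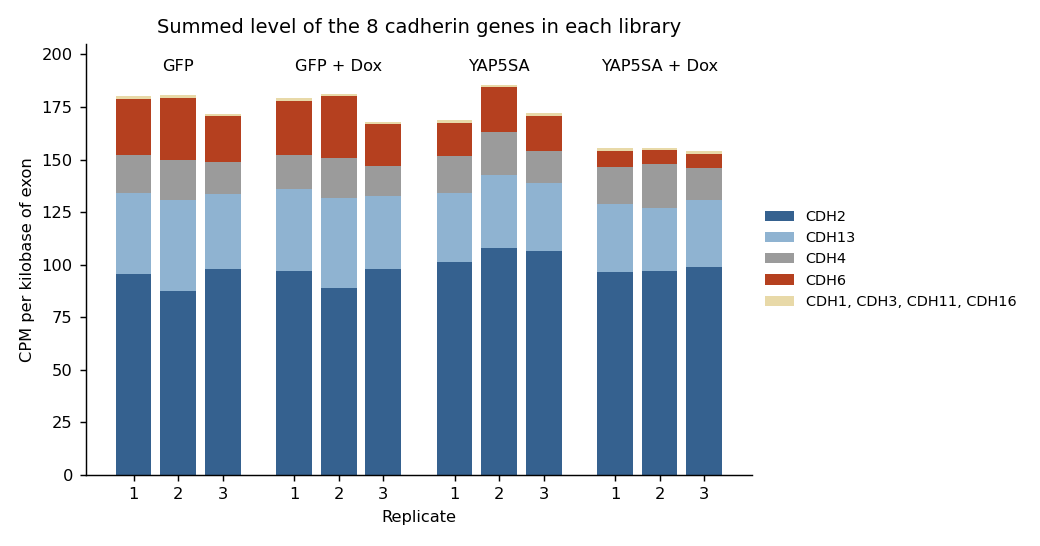
Summed CPM per kilobase of exon of the 8 cadherin genes in each library (linear axis from 0), divided by gene. The CDH6 segment is thinnest in the 3 induced YAP5SA libraries, at 4.12 to 4.96% of the sum, and the CDH2 segment changes little in height.

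The summed level of the 8 genes was 172 to 181 CPM per kilobase in GFP, 168 to 181 in GFP with doxycycline, 169 to 186 in uninduced and 154 to 156 in induced YAP5SA. The 3 induced libraries were thus the lowest of the 12. CDH6 made up 12.7 to 16.4% of the sum in GFP, 12.0 to 16.2% in GFP with doxycycline, 9.39 to 11.5% in uninduced and 4.12 to 4.96% in induced YAP5SA. CDH2 made up 48.2 to 56.9%, 48.9 to 58.2%, 58.2 to 61.8% and 62.2 to 64.3% in the same order. These shares describe transcripts of the 8 genes only and are not a measure of protein at the junction.

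Genes with a profile like that of CDH6 were sought by the root mean square difference of log2 CPM, each gene centred on its own mean, over the 12 libraries and 13101 tested genes with a mean of at least 2 CPM. The closest was ADAMTS14, a procollagen-processing protease, at 0.13. Also near were the secreted glycoprotein STC1 at 0.16, SYT12 at 0.17 and the Ras-like GTPase DIRAS2 at 0.20, beside a median of 0.80 over all genes compared. ADAMTS14 averaged 25.9, 26.1, 17.9 and 8.47 CPM in GFP, GFP with doxycycline, uninduced and induced YAP5SA. STC1 averaged 36.3, 33.8, 28.0 and 10.5 CPM in that order. Both had an intermediate level in uninduced YAP5SA and the lowest in induced YAP5SA, as did SYT12 and DIRAS2. Among the cadherins, CDH16 was the nearest to CDH6 at 0.39 and CDH11 the farthest at 1.86. These are descriptions of 1 set of libraries, which all the genes share.

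**Figure D4:**
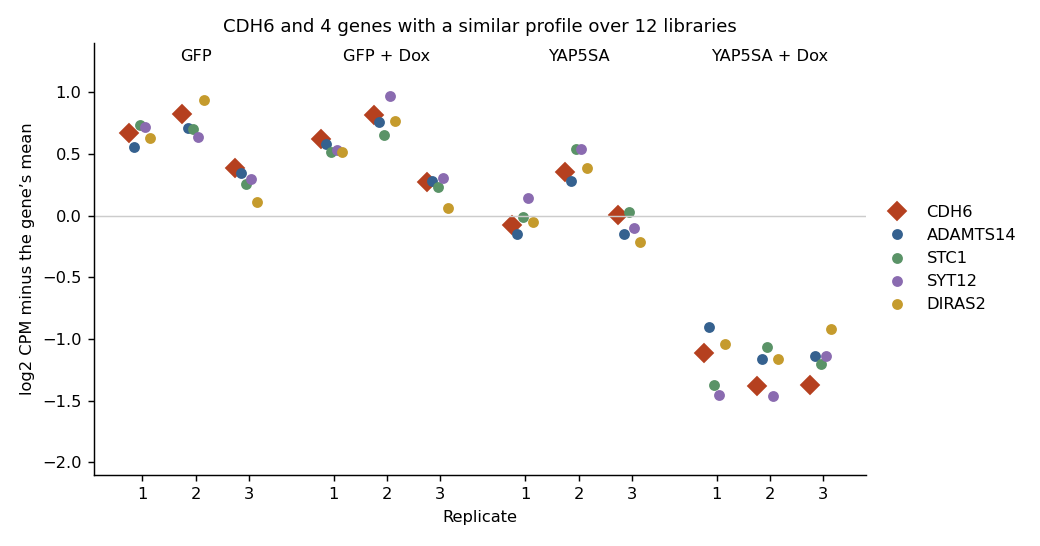
Log2 CPM minus the gene's own mean over 12 libraries for CDH6 (diamonds) and 4 of the 5 genes nearest to it (circles), by group and replicate. In each gene shown the 3 induced libraries are the lowest, and for CDH6, ADAMTS14 and DIRAS2 replicate 2 is the highest in each of the other 3 groups.

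Other cadherins were scarcer or changed less. Of 22 further classical and related genes, 9 were tested, 0 rose and 3 fell on induction, beside 9.83% and 9.28% of all genes tested. Their median log2 fold change was -0.13. CLSTN1 (calsyntenin-1, a cadherin of the secretory pathway and synapse) fell by 0.18, from 369 ± 3.97 to 327 ± 9.48 CPM (SD, n = 3; edgeR adjusted p = 0.00428). CDH24, a type II cadherin, had a log2 fold change of -0.48 (adjusted p = 0.0272), which lost its call with no filter on low counts and without uninduced replicate 1 or 2 or induced replicate 1 or 3 (-0.57 to -0.38 over the libraries left out). CLSTN3 had -0.30 (adjusted p = 0.0411), and its call held in 4 of the 12 fits with a library left out, those without GFP with doxycycline replicate 2 or 3, uninduced replicate 2 or induced replicate 3 (-0.39 to -0.20). CDH10, a type II cadherin of the nervous system, was higher in the YAP5SA line by 0.68 ± 0.11 without doxycycline (SE, edgeR adjusted p = 0.00326) and 0.47 ± 0.11 with it (adjusted p = 0.00577), at 6.52 ± 0.44 CPM in GFP and 10.4 ± 0.96 CPM in uninduced YAP5SA (SD, n = 3). The list's calls between the lines were CDH10 without doxycycline and, with it, 1 higher and 3 lower. Of all genes tested, 6.04% were higher without doxycycline, and 19.9% were higher and 18.4% lower with it.

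Catenin and catenin-like genes moved both ways on induction. Of 10, 9 were tested, 3 rose and 3 fell, beside 9.83% and 9.28% of all genes tested. CTNNAL1 (alpha-catulin) rose by 0.46 ± 0.06 on the log2 scale and CTNNB1 (beta-catenin) by 0.15 ± 0.04 (SE, edgeR adjusted p = 0.000174 and 0.00925). JUP (plakoglobin) fell by 0.36 ± 0.05, from 678 ± 16.7 to 527 ± 35.5 CPM (SD, n = 3), and the p120 relative ARVCF by 0.73 ± 0.16 (adjusted p = 0.000145 and 0.00997). The remaining calls, named after their values were seen, were CTNND2 (1.07) and CTNND1, the p120 catenin gene (-0.29). Both were lost in a fit of those groups alone. CTNND2 was also lost without any 1 of the uninduced libraries or induced replicate 2 (0.84 to 1.21 over the libraries left out), and CTNND1 without uninduced replicate 1 or 3 or induced replicate 1 or 2 (-0.38 to -0.24). ARVCF lost its call in the fit of those groups alone and with no filter on low counts. For the interaction 1 was called higher, CTNNAL1, and 1 lower, JUP, beside 3.6% and 3.28% of all genes tested.

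Of 20 scaffold and actin-linking genes of the adherens junction that were tested, 9 rose and 1 fell on induction, beside 9.83% and 9.28% of all genes tested, with a median of 0.18. AJUBA, a LIM protein that binds alpha-catenin, rose by 0.35 ± 0.04, from 159 ± 5.41 to 202 ± 2.60 CPM (SD, n = 3). TJP1 (ZO-1) rose by 0.30 ± 0.03, NECTIN2, an adhesion molecule of the same junction, by 0.30 ± 0.04 and the YAP-binding phosphatase PTPN14 by 0.43 ± 0.05 (SE, edgeR adjusted p between 3.1e-05 and 0.000153). The gene that fell, named after its value was seen, was NECTIN1 (-0.52 ± 0.09, adjusted p = 0.00107). For the interaction 5 were called higher, among them TJP1 (0.32) and AJUBA (0.32), and 1 lower, beside 3.6% and 3.28% of all genes tested. The lower one, NECTIN1, held its call in 2 of 12 fits with a library left out. Between the lines, 6 were already higher and 0 lower in YAP5SA without doxycycline, beside 6.04% and 2.61% of all genes tested. Among the 6 were AJUBA (0.18), NECTIN2 (0.23) and PTPN14 (0.22), whose calls held in 11, 12 and 8 of 12 such fits. With doxycycline 14 were higher and 1 lower, beside 19.9% and 18.4%.

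**Figure D5:**
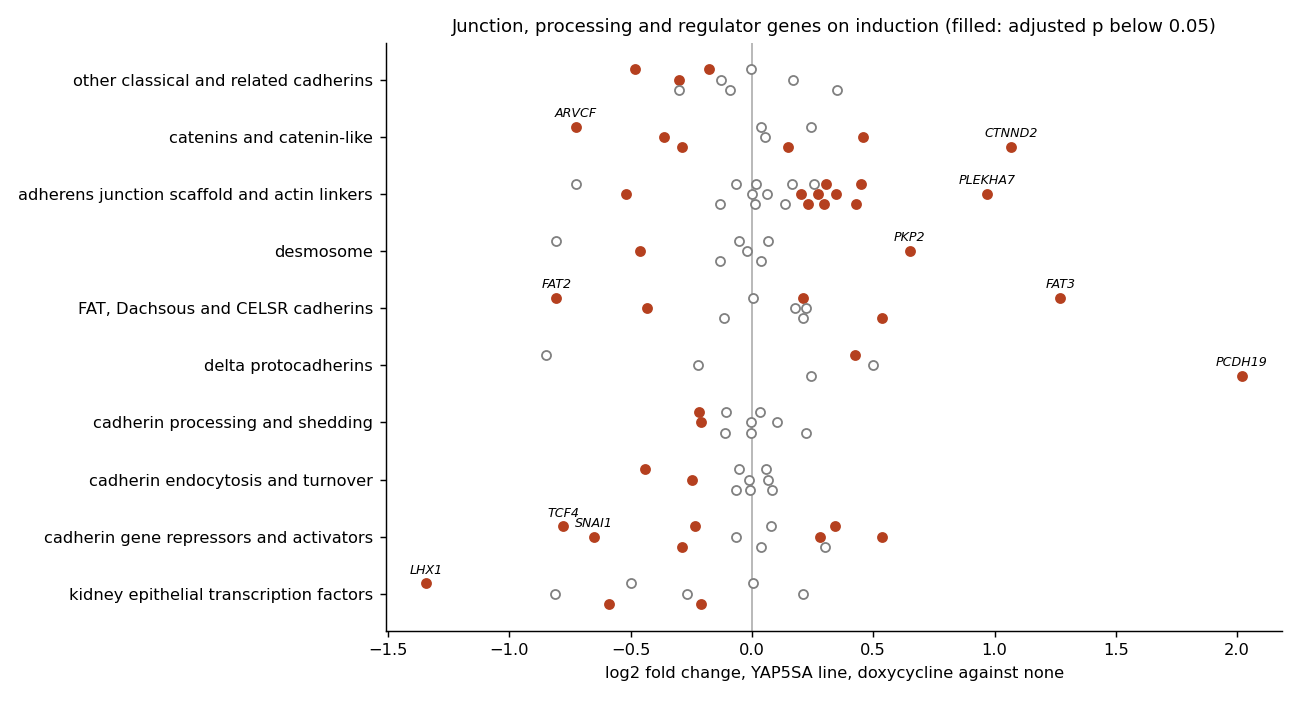
Log2 fold change on induction of the tested genes of 10 lists of cadherin-related genes, 1 point per gene (filled: edgeR adjusted p below 0.05); height within a row only separates the points. The scaffold row has 9 filled points right of 0 and 1 left of it, and the row of kidney transcription factors has 3, all on the left.

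Among the desmosomal genes 8 of 12 were tested, with 1 rise and 1 fall on induction. Of all genes tested, 9.83% rose and 9.28% fell. PKP2 (plakophilin-2) rose by 0.65 ± 0.12, from 24.6 ± 0.33 to 38.7 ± 3.46 CPM, and the desmosomal cadherin DSC2 fell by 0.46 ± 0.09, from 38.4 ± 2.78 to 27.9 ± 3.74 CPM (SE on the log2 scale, SD of CPM, n = 3; edgeR adjusted p = 0.00303 and 0.00226). Of 10 genes listed with the giant FAT, Dachsous and CELSR cadherins, all tested, 3 rose and 2 fell. FAT3 rose by 1.27 ± 0.12, from 23.5 ± 3.36 to 56.6 ± 4.59 CPM, and FAT4 by 0.54 ± 0.07 (adjusted p = 2.67e-05 and 0.000115), and both were also called for the interaction. FAT1, a slit-diaphragm cadherin of podocytes, rose by 0.21 ± 0.05 and CELSR3 fell by 0.43 ± 0.08 (adjusted p = 0.00871 and 0.00218). FAT2, named after its value was seen, had -0.81, and its call was lost without uninduced replicate 1 or 3 and without induced replicate 1 or 2 (-1.06 to -0.55), with no filter and in the fit of those groups alone. Of 11 delta protocadherins 6 were tested and 2 rose, PCDH7 by 0.42 ± 0.10 and PCDH19 by 2.02 ± 0.44 (adjusted p = 0.0114 and 0.0063), the second from 0.395 ± 0.069 to 1.62 ± 0.32 CPM.

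Genes that cut or recycle cadherins changed little in size. Of the 9 for processing and shedding, 0 rose and 2 fell, ADAM15 by 0.22 ± 0.04 and ADAM17 by 0.21 ± 0.04 (SE, edgeR adjusted p = 0.00226 and 0.00291). ADAM10, the main sheddase of CDH1 and CDH2, had 0.10 ± 0.04 and did not pass (adjusted p = 0.0744). Of the 9 for endocytosis and turnover, 0 rose and 2 fell, the NUMB relative NUMBL by 0.44 ± 0.07 and the lipid kinase PIP5K1C by 0.25 ± 0.05 (adjusted p = 0.000987 and 0.00622). Both lists' medians, -0.0054 and -0.01, lay near that of all genes tested, of which 9.83% rose and 9.28% fell.

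Of 16 genes listed as repressors and activators of cadherin genes, 11 were tested, 3 rose and 4 fell on induction, beside 9.83% and 9.28% of all genes tested. The epithelial activator ELF3 rose by 0.54 ± 0.07, from 36.5 ± 3.73 to 52.8 ± 2.65 CPM, and the repressor ZEB2 by 0.28 ± 0.05 (SE of log2, SD of CPM, n = 3; edgeR adjusted p = 0.000299 and 0.00261). The repressor SNAI1 fell by 0.65 ± 0.12, from 10.1 ± 1.68 to 6.44 ± 0.49 CPM, and TCF3 (E2A) fell by 0.29 ± 0.06 (adjusted p = 0.00238 and 0.00523). SNAI2 was lower in the YAP5SA line without doxycycline by -0.51 ± 0.06 and with it by -0.74 ± 0.06 (adjusted p = 0.000462 and 1.61e-06). The remaining genes that fell on induction, named after their values were seen, were TCF4 (-0.78) and SNAI2 (-0.24). SNAI2 lost its call in the fit of those groups alone, and without uninduced replicate 1 or 3 or induced replicate 2. The remaining rise was that of ESRP2 (0.34), a splicing regulator that the list's label does not describe. The repressors SNAI1 and SNAI2 thus fell on induction and the repressor ZEB2 rose.

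Of 12 kidney epithelial transcription factors 8 were tested, and 0 rose and 3 fell on induction, beside 9.83% and 9.28% of all genes tested. Their median was -0.38. LHX1, a regulator of the early nephron, fell by 1.34 ± 0.31, from 20.3 ± 2.84 to 8.0 ± 4.25 CPM (SE of log2, SD of CPM, n = 3; edgeR adjusted p = 0.0146). EMX2 had -0.59 ± 0.19 (adjusted p = 0.043), and its call was lost without replicate 1 of any group, without uninduced replicate 2 and without induced replicate 3 (-0.72 to -0.44), and also with limma-voom and in the fit of those groups alone. LHX1 lost its call with no filter on low counts and in the fit of those groups alone, and none of the 8 was called for the interaction.

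Between the lines, 3 of these factors were lower in YAP5SA without doxycycline and 6 with it, beside 2.61% and 18.4% of all genes tested, and 0 were higher, with medians of -0.31 and -0.86. EMX2, a homeobox factor of the developing urogenital tract, stood at 5.04 ± 0.69 CPM in GFP, 4.76 ± 0.67 in GFP with doxycycline, 2.87 ± 0.42 in uninduced and 1.91 ± 0.38 in induced YAP5SA (SD, n = 3). Its log2 difference was -0.81 ± 0.17 without and -1.32 ± 0.18 with doxycycline (SE, edgeR adjusted p = 0.00999 and 7.65e-05), the first of which was lost without GFP replicate 2 (adjusted p = 0.0552). EMX2, CDH6 and CDH16 thus had the same order of group means, with GFP highest, then GFP with doxycycline, uninduced and induced YAP5SA. That shared order is a description of the same 12 libraries, and the part of EMX2 in the cadherin levels was not tested.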

How the data were processed

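The authors deposited 1 table for the 12 libraries, whose values are raw counts, the whole number of reads for each gene. Tools named in the submitters' processing notes are featureCounts, Subread, DRAGEN, DESeq2 and limma, with the build GRCh38 (hg38), and neither their roles and versions nor a strand setting is stated there. The poly(A) mRNA kit was given 1000 ng of total RNA, per the labels' protocols.

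Genes were kept by filterByExpr (minimum count 10), which left 17470, all 8 cadherins among them, scaled by TMM and fitted over all 12 libraries, 1 mean per group, with edgeR 4.0.16 in R 4.3.3 (robust quasi-likelihood, 8 residual degrees of freedom). The threshold was a Benjamini-Hochberg adjusted p of 0.05. Positions and exon lengths came from GENCODE 29. The fit was tested on simulated data. The members and lists were chosen with earlier results of these data known. Genes named are the 8 members, up to 4 of each list with the smallest p among those called on induction (2 in other comparisons), markers near 0, the 5 profiles nearest to CDH6 and YAP1; others are named as seen afterwards, and some items are not reported here. Lists are described by counts and medians, with no set test.

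The alternatives were scaling by RLE or the upper quartile, no filter or 1 CPM in 6 libraries, DESeq2 1.42.0, limma-voom (limma 3.58.1), each comparison's groups alone, YAP1 left out of library sizes, longest-transcript lengths, leaving out each library and a block on the replicate number. A block in the 6 GFP libraries alone was chosen after seeing the data. Between the GFP groups, the deviations from the group mean of libraries with the same number had correlations of 0.23, 0.42 and 0.41, so these are taken as paired by the labels' numbers. Between the YAP5SA groups they were -0.12, 0.35 and 0.33, and these are not. No library was a copy of another (chi-square per gene between replicates of 4.22 to 13.3).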

Additional observations from a re-analysis of the deposited data

Results flagged for a closer look

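The effect of doxycycline on CDH6 differed between the lines. The log2 fold change with doxycycline was -1.39 in the YAP5SA line and -0.05 in the GFP line, and the difference of -1.34 ± 0.24 (SE) passed the interaction test (edgeR adjusted p = 0.00962). All 3 induced YAP5SA libraries were lower than all 3 uninduced ones, while the GFP libraries overlapped. With 3 libraries per group, single libraries were not screened as outliers.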

How the results depend on the processing

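The calls of CDH6 on induction, for the interaction and between the lines with doxycycline, and those of CDH13 and CDH16 between the lines with doxycycline, held under every alternative run. No member's fold change reversed a call. On induction 2 members were called, not 1, with no filter on low counts and with the replicate block over 12 libraries (CDH1 and CDH6 in both), and 1 to 2 with a library left out. Without doxycycline between the lines 2 were called with no filter (CDH2 and CDH16), 4 with DESeq2 and 4 with the replicate block (CDH2, CDH6, CDH13 and CDH16 in both), and 0 to 3 with a library left out. With the block, edgeR's adjusted p was 0.0254 for CDH1 on induction (0.80) and, without doxycycline, 0.0087 for CDH2 (0.17), 0.0383 for CDH6 (-0.53) and 0.0141 for CDH13 (-0.24). It also called CDH4 between the lines with doxycycline (0.13, edgeR adjusted p = 0.00892). Same-numbered libraries of these groups did not all deviate together, so the block is a check only; in the GFP line it called no member.

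Over all genes, the block called 2418 in place of 1202 for the interaction and 2993 in place of 1511 between the lines without doxycycline. The first count was 776, 741 and 788 without GFP replicate 3, GFP with doxycycline replicate 1 and uninduced replicate 1, and the second 717, 668 and 564 without GFP replicates 1 and 2 and uninduced replicate 1. On induction the 3 kidney transcription factors that fell were 2 to 5 under the other settings and 1 to 3 with a library left out, and the 3 further cadherins 1 to 3 in both. The causes were not tested. Low counts limit CDH1, CDH3, CDH11 and CDH16, which had 337 to 1578 reads over the 12 libraries.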
